A study of Rattus norvegicus with 3 samples.

Results

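The genes described here were 39 nuclear receptor genes of the rat, listed by name as 5 steroid receptors, 16 metabolic receptors and 18 orphan receptors. A probe was assigned to one of them when its RefSeq accession stood under that gene in the NCBI table of the assembly GRCr8. Of the 39 genes, 36 had at least 1 probe (48 of 30367 probes other than controls), and Hnf4g, Nr6a1 and Rora had none matched. After a filter on dim probes, 23 of the genes were tested among 14188 genes in all. Of these, 8917 had a gene symbol, and the shares of all genes given below count the others too.

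Kidney RNA of male Sprague-Dawley rats, 5 weeks old per the labels, that drank water with 200 ppm gamma-aminobutyric acid (GABA) was named G200. It was hybridised together with kidney RNA of the negative control, male Sprague-Dawley rats of the same age without that treatment, on 3 rat microarrays from Agilent that read 2 colours. The methods give 5 weeks as the age at purchase, before acclimation and 3 weeks of treatment. The labels describe both tissues as non-tumor kidney and give 3 rats per group. Green (Cy3) always carried the control and red (Cy5) always carried G200. No array (0 of 3) had the dyes exchanged, so an effect of the dye and an effect of GABA cannot be told apart, and all 3 arrays lay on 1 slide read in 1 scan. All 11 markers of the proximal tubule and all 5 of the thick ascending limb passed the filter on dim probes, as did 20 of 23 liver markers, which are given beside the receptor results.

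Nuclear receptors are transcription factors that bind DNA and are switched by small lipophilic ligands such as steroids, fatty acids, oxysterols, bile acids, retinoids and thyroid hormone. Many pair with a retinoid X receptor, and orphan receptors are those for which no natural ligand was known when they were named or for which none is generally accepted. In the kidney the mineralocorticoid receptor is known for sodium transport in the distal nephron, the glucocorticoid receptor acts in nearly every cell type, and HNF4A maintains the proximal tubule.

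The detection of each receptor was read first. A probe was called well above background when at least 0.5 of its spots carried that mark of the scanner software in a given colour. In green, 23 receptor genes reached it on all 3 arrays, and in red 20 did. Those 20 were seen in both colours throughout, and the remaining 3, Nr1i3, Rxra and Rxrg, were seen on all arrays in the control only. Among the metabolic receptors, 13 of 16 were detected on all arrays in at least 1 colour, against 2 of 5 steroid receptors and 8 of the 15 orphan receptors with a probe. With the looser mark of a positive and significant signal 30 genes were detected, namely 15 metabolic, 4 steroid and 11 orphan receptors, and requiring every probe of a gene to be well above background left 19. On single arrays, 24, 24 and 24 receptor genes were detected in green and 24, 20 and 23 in red on replicates 1, 2 and 3. G200 on replicate 2 thus showed the fewest. It also had the lowest share of all red spots with the mark, 56.6% against 63.0% and 61.0% on replicates 1 and 3. The filter on dim probes kept 54.2% of the receptor probes and 51.6% of all probes.

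The receptors outside these 23 were dim rather than shown to be missing. Ppara, the receptor that switches on fatty acid oxidation, was well above background on 1 array in each colour, Ppard on 2 arrays in each colour, and Nr2c2 on 1 array in red. The estrogen receptors Esr1 and Esr2, the progesterone receptor Pgr and the thyroid hormone receptor Thrb were well above background on no array. The same held for Esrrb, Esrrg, Nr2f1, Nr4a3, Nr5a2 and Rorb, which made 10 genes. Esr1 was printed at 10 spots per array, of which 0 stood clearly above background in either colour. For these genes neither a level nor a ratio is given.

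**Figure D1:**
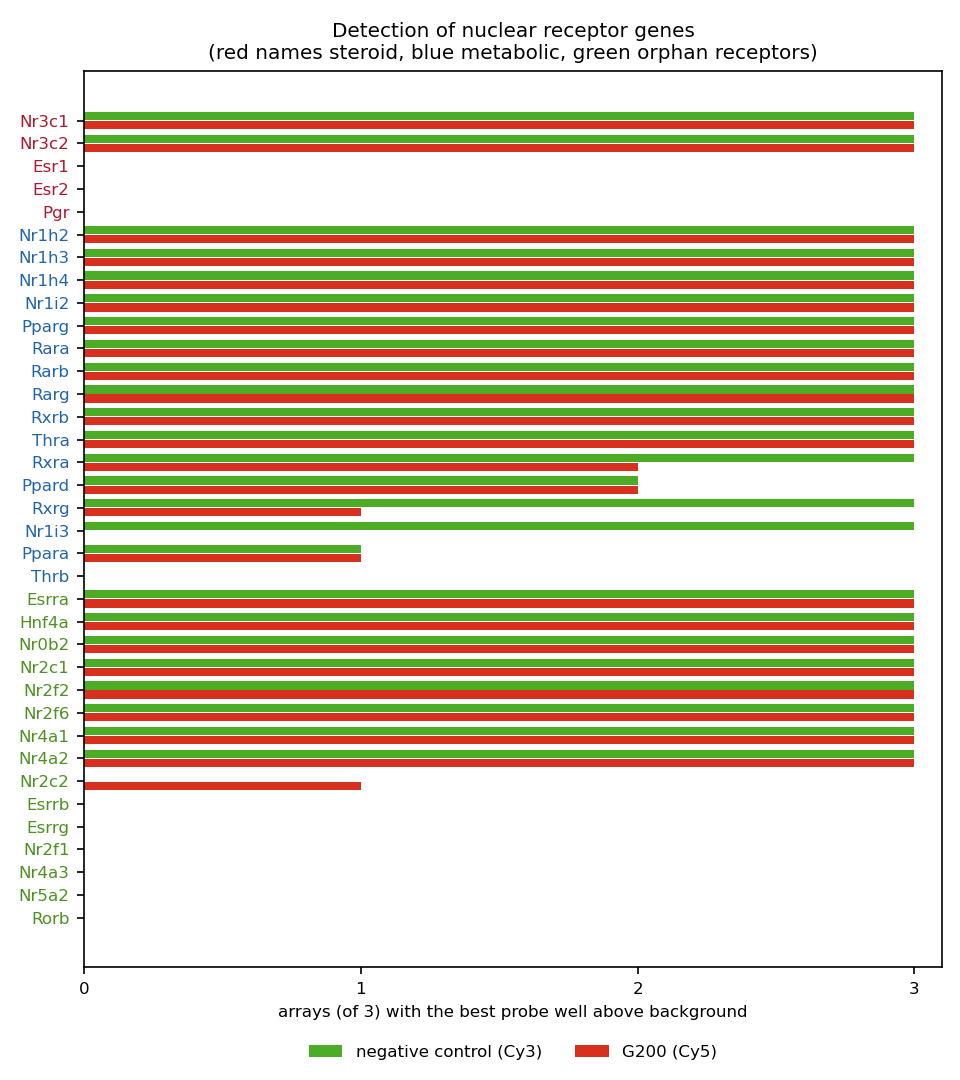
Number of arrays, of 3, on which the best probe of each of the 36 receptor genes with a probe was well above background, in the negative control (green bars) and in G200 (red bars). Nr1i3 reached 3 arrays in the control and 0 in G200, and 10 genes have no bar.

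Ratios are given as log2 of G200 over the control after loess normalization between the dyes, so a value below 0 is lower in G200, and ± is the SD over the 3 arrays. In the median, the 3 control channels varied between arrays no more than replicate spots within an array. The median ratio of these mean squares was 0.553 over 1117 probes, against 5.74 over 1097 probes in G200. After adjustment 33 of these probes differed between arrays in the control and 657 in G200. The control was therefore counted as 1 sample, and the limma test of the mean ratio against 0 leaves out the spread between control rats. With 3 arrays, precision is limited throughout. Levels are normalized log2 intensities of each colour and are compared only within a gene. The 3 control values of a gene are repeats of 1 sample, so whether the colours overlap describes these arrays and is no test.

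Of the 23 receptors tested, 11 were lower in G200 at an adjusted p under 0.05, beside 25.92% of all genes tested, and 0 were higher, beside 11.54%, a balance that turned to 2 lower and 5 higher when loess was replaced by median centring and to 0 lower and 8 higher with no normalization between the dyes. Over all genes tested, 8.79% were lower and 35.2% higher with median centring, and 2.1% and 56.5% with no normalization. The 2 receptors lower with median centring were Nr1i3 and Rxrg. In either direction 37.47% of all genes passed. Without adjustment, 13 receptors were lower and 1 was higher in limma's test, beside 4515 lower and 2451 higher of all 14188 genes. The 3 receptors seen on all arrays in the control only passed the filter through that colour, which favours a lower ratio, and 9 of the 20 receptors seen in both colours were called, all lower, beside 2911 lower of 12498 genes seen in both colours. Many calls depended on replicate 3: without it Nr1h4, Nr1i2 and Nr2f6 remained (3 receptors), and 1618 of all genes, against 5316 with it. The ratios of 7 of the 8 lost receptors stayed near their size or grew without it, such as Nr1h3 at -0.47 and Hnf4a at -0.30, and Nr4a1 shrank to -0.23. The methods' t-test called 0 receptors after adjustment, whether on the channels or on the log ratios, and 10 or 8 without it, beside 4178 and 4475 of all genes.

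The median log2 ratio of the 13 metabolic receptors was -0.31 (-0.38, -0.29 and -0.27 on replicates 1, 2 and 3), that of the 8 orphan receptors -0.31 (-0.25, -0.24 and -0.37), and that of all genes tested -0.05 (-0.06, -0.04 and -0.05), but with median centring the classes stood at 0.05 and 0.17 and all genes at 0.27, and with no normalization at 0.40, 0.52 and 0.62. The pair of steroid receptors had a median of 0.18 (0.32, 0.18 and 0.04), above 0 under every scaling tried. This median was 0.11 without replicate 1, and 0.07 over 5 genes without the filter on dim probes. Of the metabolic receptors 7 of 13 were called lower and of the orphan receptors 4 of 8, beside 25.92% of all genes. Of the steroid receptors 0 of 2 were, where limma's unadjusted p passed for 1 gene. With median centring the metabolic receptors had 2 lower and 3 higher, and the orphan and steroid receptors each 0 and 1. The metabolic median with loess was the value of Nr1i3 itself. Over receptors seen in both colours the metabolic median was -0.30 and the count 5 of 10, since Nr1i3 and Rxrg dropped out of the calls, and the other classes were the same. The difference between the classes was not tested.

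**Figure D2:**
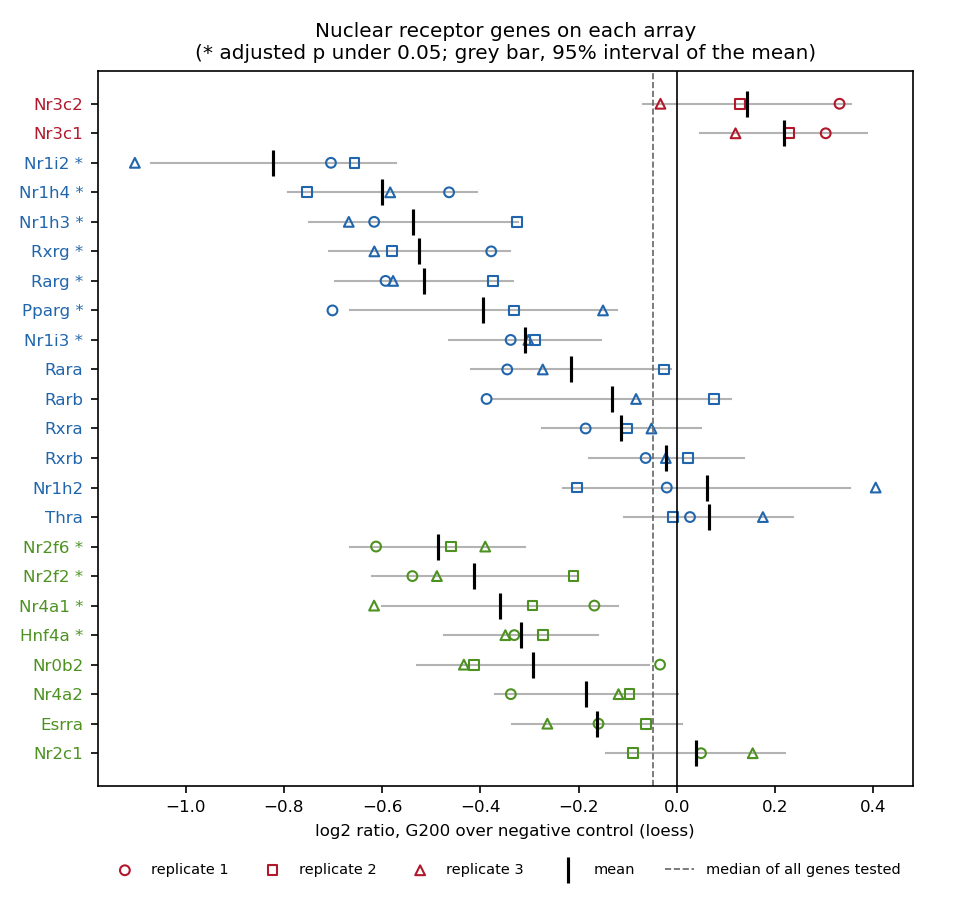
Log2 ratio of G200 over the negative control for the 23 receptor genes tested, on each array (symbols) and as the mean (bar) with its 95% interval, after loess. The 11 starred genes lie below 0 on all 3 arrays with loess, whereas 6 of these 11 had means above 0 with median centring.

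Markers of the liver were read beside the receptors. Of 23 listed markers 20 were tested and 20 were lower in G200, and the median was -2.99 in log2 (-1.59, -3.07 and -4.19 on the arrays in order), a median that stayed below 0 under every scaling tried. Their summed normalized intensity was 211863, 236410 and 247394 in the control and 62145, 24546 and 9796 in G200, so that every control value exceeded every G200 value and G200 on replicate 3 was the lowest. Of the listed liver markers, Cps1, Cyp7a1 and Tat did not pass the filter. The liver is also known to carry receptors listed here, such as Nr1i2, Nr1i3, Nr1h3, Nr1h4, Nr0b2 and Hnf4a. These are examples and not a full list, and they were not counted as a set. With loess Nr0b2 was not called. Of the adrenal cortex markers, the steroid 21-hydroxylase gene Cyp21a1 (-0.43 ± 0.10) and Cyp17a1 (-0.26 ± 0.07) were called lower among 3 tested, although Cyp21a1 stood at 0.23 with no normalization. The third, Hsd3b1, had a mean of 0.16 and was not called with loess, but was called higher with median centring (0.53). The markers Cyp11a1, Cyp11b1, Cyp11b2 and Star did not pass the filter. Markers of the proximal tubule had a median of 0.26 (3 of 11 called higher and 1 lower, but 9 and 0 with median centring), those of the thick ascending limb 0.41 (3 of 5 higher) and those of podocytes 0.36 (1 of 5 higher), each above 0 under every scaling tried. These marker counts stand beside 25.92% of all genes called lower and 11.54% higher with loess, and beside 8.79% and 35.2% with median centring. Whether the control RNA held liver tissue was not tested, which bears on the ratios of the liver markers and of target genes that the liver also expresses. The part of these tissues in the receptor results was not tested, and in bulk kidney fewer cells of a type and less RNA per cell cannot be told apart.

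The sensors of metabolites and foreign compounds, a group formed after the values were seen, are described first. Of the 6 tested, 5 were called lower (83.3%, beside 25.92% of all genes), with a median of -0.47 (-0.54, -0.33 and -0.44). With median centring Nr1h3 and Nr1h4 turned above 0, and with no normalization all but Nr1i3 did. With median centring Nr1i3 alone was still called lower, beside 8.79% of all genes, and Nr1h2 was called higher, beside 35.2%. Nr1i2 (-0.31) and Pparg (-0.05) then stayed below 0 but were not called. With loess and without Nr1i3, which passed the filter through the control colour alone, 4 of 5 were called. Nr1i2 encodes the pregnane X receptor, which senses drugs and steroids and induces Cyp3a genes. Its normalized log2 intensity was 8.07, 8.69 and 8.57 in the control and 7.37, 8.03 and 7.46 in G200 on replicates 1, 2 and 3. All control values were above all G200 values, although replicate 1 was low in both colours. The log2 ratios were -0.70, -0.66 and -1.10, a fall of the mean to -0.82 ± 0.25 (adjusted p = 0.00299, 95% interval -1.07 to -0.57), which was 0.04 with no normalization between the dyes.

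Upstream sequences are shown for the called receptors whose window held a half-site that nuclear receptors are known to bind, since these genes encode such factors themselves. The windows are the 250 bases before the transcription start in RefSeq on GRCr8, written 5′ to 3′ on the strand of the gene, and 33 of the 39 genes had at least 1, with 41 windows in all. Both strands were searched for the common half-site AGGTCA, for its variant form GGGTCA and for the steroid receptor half-site AGAACA. These motifs do not overlap here, and capitals mark a match to one of them or to its reverse complement. These 3 motifs were kept of 10 searched and the windows were picked after the matches had been seen. AGGTCA was held by 3 of the 41 windows (7.32%, against 14.1% of 33469 windows of all genes), GGGTCA by 9 (22%, against 11.9%) and AGAACA by 1 (2.44%, against 17.5%). A match describes the letters only. The windows of Nr1i2 with AGAACA, of Pparg with GGGTCA and of Rarg with AGGTCA as its reverse complement were as follows, while a further Pparg window, chr4:150154522-150154771 on the plus strand, also held GGGTCA and is not printed.
Nr1i2, chr11:75965467-75965716, plus strand: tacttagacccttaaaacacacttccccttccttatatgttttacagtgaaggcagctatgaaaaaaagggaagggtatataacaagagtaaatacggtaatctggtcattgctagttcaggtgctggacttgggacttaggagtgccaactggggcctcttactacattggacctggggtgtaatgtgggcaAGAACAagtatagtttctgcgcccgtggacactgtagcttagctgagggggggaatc
Pparg, chr4:150096808-150097057, plus strand: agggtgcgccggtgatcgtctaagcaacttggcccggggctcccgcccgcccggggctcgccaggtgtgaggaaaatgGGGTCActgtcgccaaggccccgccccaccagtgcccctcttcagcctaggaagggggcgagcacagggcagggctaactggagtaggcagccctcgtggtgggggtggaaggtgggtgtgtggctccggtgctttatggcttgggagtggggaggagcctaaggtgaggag
Rarg, chr7:135268890-135269139, minus strand: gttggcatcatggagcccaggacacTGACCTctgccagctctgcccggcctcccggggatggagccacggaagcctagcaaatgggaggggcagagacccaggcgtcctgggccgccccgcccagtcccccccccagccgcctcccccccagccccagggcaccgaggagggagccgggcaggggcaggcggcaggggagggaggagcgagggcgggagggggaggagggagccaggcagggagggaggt

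Nr1h4, the bile acid receptor FXR, gave 9.67, 9.71 and 9.68 in the control and 9.21, 8.96 and 9.09 in G200. The channels did not overlap, and the control values lay within a narrow range. Its log2 ratios were -0.46, -0.75 and -0.58, with a mean of -0.60 ± 0.14 (adjusted p = 0.00349). A further probe of Nr1h4 read -0.72, -0.77 and -0.88, so both probes were below 0 on every array. With median centring the mean of Nr1h4 was 0.05.

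Nr1h3 encodes the oxysterol receptor LXR alpha. It read 10, 9.95 and 10 in the control and 9.38, 9.62 and 9.33 in G200. Replicate 2 of G200 was the highest of its group and still under the lowest control value. The ratios of -0.62, -0.33 and -0.67 gave a mean of -0.54 ± 0.18 (adjusted p = 0.0065), which stood at 0.14 with median centring and was no longer past the threshold without replicate 3. Its close relative Nr1h2, LXR beta, had ratios of -0.02, -0.20 and 0.40 and was not called (adjusted p = 0.715), with replicate 3 apart from the other arrays, though it was called higher with median centring (0.69, adjusted p = 0.0384) and with no normalization (1.04, adjusted p = 0.0106).

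Nr1i3, the constitutive androstane receptor, is a partner of Nr1i2 in drug metabolism. Its levels were 6.31, 6.36 and 6.36 in the control and 5.97, 6.07 and 6.06 in G200, where it was not well above background on any array. The size of its ratio was therefore not determined, and its call as lower with loess (adjusted p = 0.0134) is open to dye bias. The fitted mean ran over a wide range and was -0.31 with loess, -0.09 and not called with no normalization (adjusted p = 0.68), -0.44 with median centring, -1.02 with offset 0 and -2.83 with the deposited log ratio. Pparg, the receptor that drives fat cell formation, read 7.32, 7.60 and 7.56 in the control and 6.62, 7.27 and 7.41 in G200. The channels overlapped, because G200 on replicate 3 was above the control on replicate 1. Its ratios of -0.70, -0.33 and -0.15 had a mean of -0.39 ± 0.28 (adjusted p = 0.0367), which was 0.30 with no normalization. It missed the threshold when any 1 array was left out, at -0.24, -0.43 and -0.52 without replicates 1, 2 and 3. Pparg also missed it with offset 0 (-0.61, adjusted p = 0.0546) and with the deposited log ratio (-0.63, adjusted p = 0.0862).

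**Figure D3:**
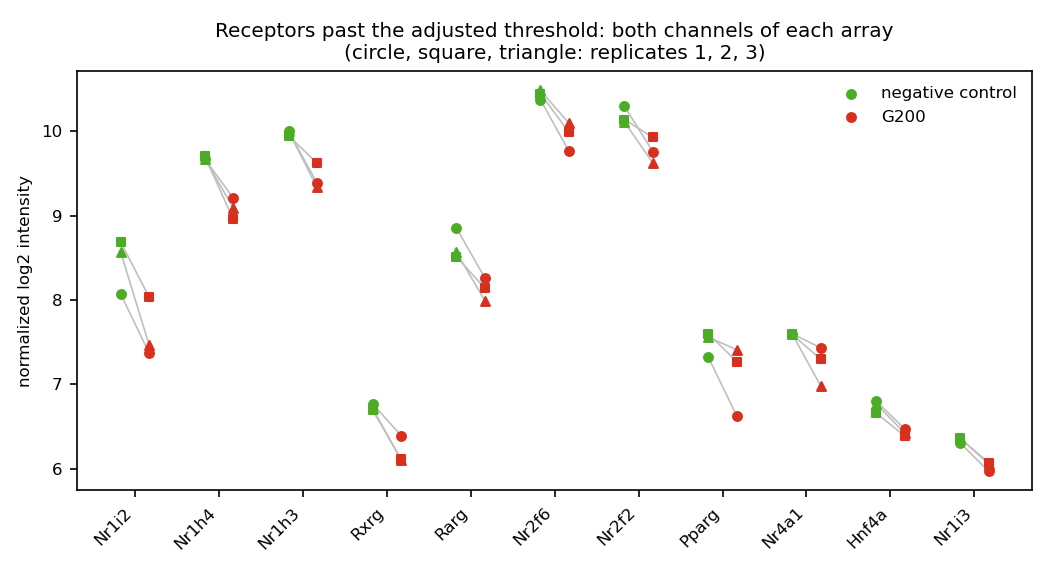
Normalized log2 intensity of the 11 called receptors in the negative control (green) and in G200 (red), with a line joining the colours of 1 array, after loess. The 3 control values of a gene are repeats of what was counted as 1 sample, and the genes shown were chosen for being called lower. With median centring 6 of the 11 mean ratios were above 0.

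The retinoid and thyroid hormone receptors had 2 of 7 called lower (28.6%, beside 25.92% of all genes) and a median of -0.13 (-0.35, -0.03 and -0.08), and of the called genes Rarg turned above 0 with median centring while Rxrg did not. Rxrg and Rxra passed the filter through the control colour alone, and without them the count was 1 of 5. Rarg, a retinoic acid receptor, had 8.85, 8.51 and 8.57 in the control and 8.26, 8.14 and 7.99 in G200. Every control value was higher than every G200 value. Its log2 ratios of -0.59, -0.37 and -0.58 averaged -0.52 ± 0.12 (adjusted p = 0.00463), with 0.06 under median centring, and a dimmer probe of Rarg read -0.10, -0.09 and 0.09. The retinoid X receptor Rxrg, which forms the dimer with many of the sensors above, read 6.77, 6.70 and 6.72 in the control and 6.39, 6.12 and 6.10 in G200. It was well above background on 1 array in G200 and its groups did not overlap. The ratios were -0.38, -0.58 and -0.62, and the call rests on a colour near background in G200. The fitted mean was -0.52 with loess, -1.28 with offset 0 and -1.95 with the deposited log ratio. With no normalization it was -0.11 and not called (adjusted p = 0.65). The size for Rxrg was therefore not determined either, and its direction is open to dye bias. Without replicate 3 Rarg stood at -0.48 (adjusted p = 0.0513) and Rxrg at -0.48 (adjusted p = 0.0512), which missed the threshold.

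The other 5 members of this group were not called with loess on all arrays. The retinoic acid receptor Rara had ratios of -0.35, -0.03 and -0.27 (adjusted p = 0.089), and Rarb had -0.39, 0.08 and -0.08. Without replicate 2 Rara was called lower (-0.31, adjusted p = 0.0371). The retinoid X receptors Rxra and Rxrb lay at -0.19, -0.10 and -0.05 and at -0.06, 0.02 and -0.02. The thyroid hormone receptor Thra gave 0.03, -0.01 and 0.18. Rarb, Rxrb and Thra thus had ratios on both sides of 0. With median centring Rara (0.36) and Rxrb (0.43) were called higher, and with no normalization Rara, Rxrb and Thra (0.55, adjusted p = 0.046) were.

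Among the orphan receptors, 4 of 8 were called lower (50%, beside 25.92% of all genes), namely Nr2f6, Nr2f2, Nr4a1 and Hnf4a. Of these, all but Hnf4a turned above 0 with median centring and all 4 with no normalization. With median centring 0 orphan receptors were called lower and 1 higher, beside 8.79% and 35.2% of all genes. With no normalization the counts were 0 and 2, beside 2.1% and 56.5%. Nr2f6 and Nr2f2 are COUP transcription factors, which mostly repress, and Nr2f2 also shapes vessels and stroma. Nr2f6 read 10.38, 10.45 and 10.49 in the control and 9.76, 9.99 and 10.10 in G200. Nr2f2 read 10.30, 10.14 and 10.11 against 9.76, 9.93 and 9.62. In both genes the lowest control value exceeded the highest value in G200.

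The log2 ratios of Nr2f6 were -0.61, -0.46 and -0.39 (mean -0.49 ± 0.11, adjusted p = 0.0051), and it was called without each array in turn. A dimmer probe of Nr2f6 read -0.09, -0.02 and -0.10. Those of Nr2f2 were -0.54, -0.21 and -0.49 (mean -0.41 ± 0.18, adjusted p = 0.0139). The call of Nr2f2 was lost with the deposited log ratio (-0.37, adjusted p = 0.0662) and without replicate 3 (-0.37). With no normalization Nr2f2 was called higher (0.63, adjusted p = 0.03). Relative to the median of all genes Nr2f2 stood at -0.36 with loess and at 0.01 with median centring.

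Hnf4a, a master regulator of proximal tubule and liver genes, had 6.80, 6.66 and 6.77 in the control and 6.47, 6.39 and 6.42 in G200. The groups were apart, and the ratios of -0.33, -0.27 and -0.35 were close to each other (mean -0.32 ± 0.04, adjusted p = 0.0129, and 0.15 with no normalization). With offset 0 the mean of Hnf4a was -0.67 and with the deposited log ratio -0.62. Nr4a1, an immediate early gene induced by many stimuli, read 7.60, 7.59 and 7.60 against 7.43, 7.30 and 6.98. The G200 arrays were all lower, replicate 3 most. Its 10 spots per array gave ratios of -0.17, -0.29 and -0.62 with a spot SD of 0.07, 0.06 and 0.04, and 0 spots were above 0 on any array. The mean was -0.36 ± 0.23 (adjusted p = 0.0335), with 0.04 under median centring. The call of Nr4a1 was lost with the deposited log ratio (-0.49, adjusted p = 0.0767). It was also lost without replicate 2 (-0.39, adjusted p = 0.0771) and without replicate 3, where the mean was -0.23.

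Esrra, which controls mitochondrial genes with the coactivator Ppargc1a, was also printed at 10 spots. It read 10.34, 10.26 and 10.28 in the control and 10.18, 10.19 and 10.01 in G200. The groups did not overlap, yet the log2 ratios of -0.16, -0.06 and -0.26 did not pass (mean -0.16 ± 0.10, adjusted p = 0.119), and the mean was 0.54 and called higher with median centring. The small heterodimer partner Nr0b2, a repressor that lacks a DNA-binding domain, had ratios of -0.03, -0.41 and -0.43 (adjusted p = 0.0573). Nr4a2 gave -0.34, -0.10 and -0.12, and Nr2c1 gave 0.05, -0.09 and 0.15. None of these 4 was called in the main fit with loess. Nr0b2 was called lower without replicate 1 (-0.42, adjusted p = 0.0114) and with robust variance in limma.

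The steroid receptors were the only class without a negative mean with loess. Nr3c1, the glucocorticoid receptor, read 6.68, 6.62 and 6.71 in the control and 6.99, 6.85 and 6.83 in G200. The groups did not overlap, and its ratios were 0.30, 0.23 and 0.12 (mean 0.22 ± 0.09, 95% interval 0.05 to 0.39). The adjusted p of 0.053 missed the threshold, which Nr3c1 passed with offset 0, with the deposited log ratio and with median centring. Nr3c2, the mineralocorticoid receptor, gave ratios of 0.33, 0.13 and -0.03, with control levels of 6.85, 6.84 and 6.94 and G200 levels of 7.18, 6.97 and 6.91. Its groups overlapped and it was not called (adjusted p = 0.237), though it was called higher with no normalization (0.76, adjusted p = 0.0211). Each of these receptors had a further, dimmer probe that did not pass the filter. It read -0.06, 0.10 and 0.04 for Nr3c1, and 0.05, -0.11 and 0.01 for Nr3c2.

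Because the median of all genes was -0.05 after loess, 0.27 after median centring and 0.62 without any normalization, the receptors were also read relative to it. The receptor median differed from the all-gene median by -0.24 with loess, -0.14 with median centring, -0.32 with the deposited log ratio and -0.29 with offset 0. With no normalization it is the same as with median centring by construction, because the arrays are only shifted. In that order 17, 16, 17 and 17 of the 23 receptors were under the all-gene median. These counts include Nr1i3, Rxra and Rxrg each time, which passed the filter through the control colour alone, and this favours a lower ratio. Over the 20 receptors seen in both colours the median with loess was -0.25, against -0.03 for all genes seen in both. The steroid receptors differed from it by 0.23, 0.14, 0.47 and 0.43 in the same order. Metabolic receptors differed by -0.26, -0.22, -0.42 and -0.51, and orphan receptors by -0.26, -0.10, -0.28 and -0.33.

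**Figure D4:**
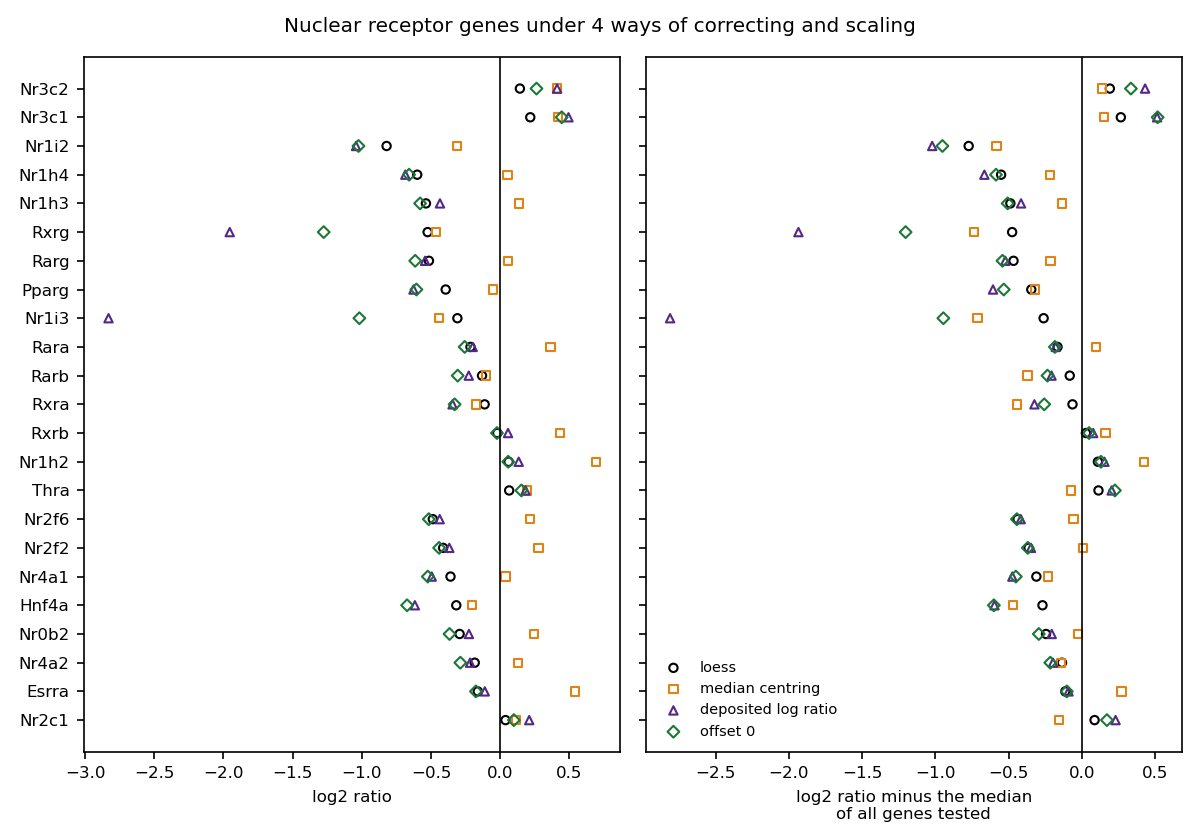
Mean log2 ratio of the 23 receptors (left) and its difference from the median of all genes tested (right) under 4 ways of correcting and scaling. With median centring (squares) 16 receptors are above 0 on the left, while 16 lie under the all-gene median on the right. The 16 on the right include Nr1i3, Rxra and Rxrg, which passed the filter through the control colour alone.

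Known targets of the receptors were counted next, from lists of textbook targets. Each count stands beside 25.92% of all genes called lower and 11.54% higher with loess, and beside 8.79% and 35.2% with median centring. The lists overlap, and 5 liver markers are among them, Tat, Fabp1, Apob, Apoc3 and Ttr. Of the targets of the pregnane X receptor and the constitutive androstane receptor, 4 of 6 tested were called lower (3 lower and 1 higher with median centring), with a median of -0.36 (-0.16 with median centring and 0.19 with no normalization). They were the steroid-metabolising Cyp3a2 (-3.20 ± 1.54) and Cyp3a23-3a1 (-1.56 ± 0.33), Cyp2b2 (-0.35 ± 0.18) and Alas1, which begins heme synthesis (-0.36 ± 0.19). Alas1 alone turned to 0.39 with median centring, and it lost its call with offset 0 (-0.36) and with the deposited log ratio (-0.34). The sizes varied with the correction. Cyp3a23-3a1 stood at -3.51 with offset 0, -4.05 with the deposited log ratio and -1.0 with no normalization. In that order Cyp2b2 stood at -1.08, -1.92 and -0.08, and it was not called with no normalization. Cyp3a2 was -1.58, -3.37 and -4.64 on replicates 1, 2 and 3, an order it shared with the median of the liver markers. Nr1i2 itself, at -0.70, -0.66 and -1.10, did not share this order. The cause was not tested.

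Of 8 LXR targets, 4 were called lower and 1 higher, with a median of -0.15 that was 0.07 with median centring. The counts were 3 lower and 1 higher with median centring. With no normalization they were 2 and 4, with a median of 0.42. Apoe (-2.74 ± 0.86), the desaturase gene Scd (-2.39 ± 0.72) and the sterol transporter Abcg5 (-0.76 ± 0.15) were below 0 under every scaling tried, whereas Fasn (-0.24) turned to 0.35 with median centring. The size for Abcg5 varied, with -2.0 at offset 0, -2.45 with the deposited log ratio, and -0.42 without normalization, where it was not called. Of 3 FXR targets, the bile pigment transporter Abcc2 was called lower (-1.11 ± 0.22). Abcc2 stood at -1.86 with the deposited log ratio, and at -0.39 and not called with no normalization. The FXR list had 2 lower and 0 higher with offset 0, and 0 lower and 1 higher with no normalization. Of the 25 PPAR targets, 6 were lower (24%, beside 25.92% of all genes) and 5 higher (20%, beside 11.54%), with a median of -0.06. With median centring 3 were lower and 13 higher, where 8.79% and 35.2% of all genes were, and the median was 0.54. The fatty acid binding protein Fabp1 (-3.80 ± 1.53), the fatty acid hydroxylase Cyp4a8 (-2.15 ± 0.50) and the transcription factor Creb3l3 (-2.04 ± 0.72) had the lowest ratios, all below 0 under every scaling tried. Fabp3 (0.94 ± 0.41), Cd36 (0.51 ± 0.38) and Acot1 (0.39 ± 0.20) were called higher under every scaling tried. HNF4 targets gave 5 lower (35.7%) and 1 higher (7.14%) of 14, and 5 lower and 4 higher with median centring, with Ttr (-3.72 ± 1.82), Apoc3 (-3.0 ± 1.13) and Apob (-2.47 ± 1.23) lower and the proximal tubule receptor Cubn (0.45 ± 0.33) higher, each with its sign kept under every scaling.

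Targets of the steroid receptors were counted in the same way. Of 10 mineralocorticoid receptor targets, 3 were called higher and 1 lower (6 and 0 with median centring), with a median of 0.20. Among them, the sodium pump subunit Atp1b1 (0.97, 0.60 and 0.50, mean 0.69 ± 0.25) and the kinase Sgk1 (0.35 ± 0.27) were above 0 under every scaling tried, and Usp2 (-0.49 ± 0.30) turned to 0.13 with median centring. Of 12 glucocorticoid receptor targets, 2 were higher, Sgk1 and the metallothionein Mt2A (0.31 ± 0.13), and 2 were lower, Cdkn1a (-1.03 ± 0.46) and Errfi1 (-1.0 ± 0.46), both of which turned above 0 with no normalization. With median centring 0 of these targets were lower and 7 higher, and with no normalization 0 and 9. The calls of Sgk1 and Mt2A were lost with offset 0 and with the deposited log ratio. In that order the ratios were 0.49 and 0.47 for Sgk1 and 0.34 and 0.33 for Mt2A. The median of this list was 0.08 with loess. The ERR targets, genes of mitochondrial energy metabolism, had 4 of 7 called higher with loess and 6 of 7 with median centring, and a median of 0.32 that stayed above 0 under every scaling. Among them were Atp5f1b (0.51 ± 0.39), Acadm (0.50 ± 0.15) and Idh3a (0.32 ± 0.18), while Esrra itself was not called with loess. The medians of the proximal tubule and thick ascending limb markers were also above 0. With loess 4 of 11 and 1 of 5 of these markers lay below 0. The part of these markers in the target lists was not tested.

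The targets of the retinoid and thyroid receptors showed 1 lower and 1 higher gene each, among 5 and 4 tested. Crabp2, which carries retinoic acid to its receptor, was lower (-0.86 ± 0.46) and the transglutaminase Tgm2 higher (0.32 ± 0.12). Thrsp was lower (-0.38 ± 0.05) and the deiodinase Dio1, which activates thyroid hormone, higher (0.42 ± 0.14). Crabp2 and Dio1 were also the only 2 of 13 ligand enzymes and carriers to pass with loess, where median centring gave 0 lower and 5 higher, and offset 0 gave 2 lower and 1 higher. These 4 genes kept their sign under every scaling tried, and Dio1 alone its call. Crabp2 was not called with median centring (-0.44), Tgm2 was not called with offset 0, and Thrsp ran from -0.05 without normalization, where it was not called, to -1.35 with the deposited log ratio.

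Among the partners of the receptors the counts also depended on scaling. Of 6 coactivators Pprc1 (-0.27 ± 0.11) and Ncoa2 (-0.23 ± 0.10) were called lower, and of 6 corepressors Gps2 (-0.32 ± 0.15) and Tbl1x (-0.21 ± 0.05), each 33.3% of its list beside 25.92% of all genes. With median centring 0 coactivators were lower and 1 higher, and 0 corepressors lower and 3 higher, beside 8.79% and 35.2% of all genes. With no normalization the counts were 0 and 2, and 0 and 5, beside 2.1% and 56.5%, with Gps2 and Tbl1x called higher. With median centring Pprc1, Gps2 and Tbl1x were above 0, and with no normalization all 4 were. With the deposited log ratio 0 of the 4 were called, at -0.36 for Pprc1, -0.37 for Ncoa2, -0.35 for Gps2 and -0.27 for Tbl1x. Of the 6 steroid receptor chaperones 0 were called with loess, and limma's unadjusted p passed for 1, but 3 were called higher under median centring and 5 without normalization. The vitamin D receptor Vdr, outside the 39, was tested with a mean of -0.20 and was not called (adjusted p = 0.0907). Vdr was called lower with the deposited log ratio (-0.54), and stood at 0.23 and not called with no normalization.

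**Figure D5:**
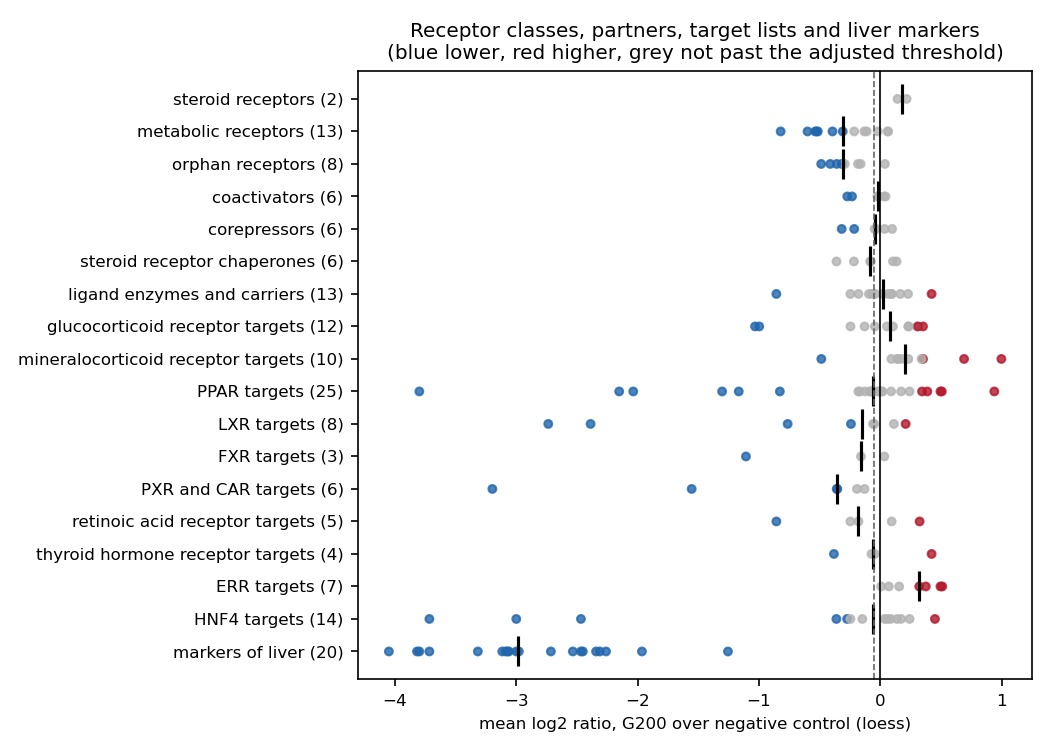
Mean log2 ratio after loess of each tested gene (points) and the median (bar) of the receptor classes, partner lists, target lists and liver markers, with the number tested in brackets. The liver median is -2.99 and the ERR target median 0.32 with loess, and these keep their sign under every scaling tried, whereas the metabolic and orphan receptor medians of -0.31 turn above 0 with median centring.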

How the data were processed

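The authors scanned the arrays and deposited Feature Extraction tables with median intensities of spots and local background in 2 colours, and a log10 ratio of red over green. The labels name Feature Extraction 9.3.2.1 and the file headers 11.5.1.1. The deposited marks for spots well above background and for outliers were used as given. Here intensities were corrected with limma 3.58.1 in R 4.3.3 (normexp on all 44254 spots, offset 50) and normalized by loess within each array, with control and outlier spots left out (635, 736 and 945 outlier spots). Spots of a probe were averaged, and 18355 of 30367 probes (60.4%) were matched to a symbol. The filter kept 15656 probes whose green or whose red signal carried the mark on all 3 arrays, and the brightest stood for its gene. The mark was set for 59.8%, 62.7% and 62.3% of green spots and 63.0%, 56.6% and 61.0% of red spots on replicates 1, 2 and 3, and 0 spots were saturated. Signal near background limits the other ratios.

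Mean log2 ratios were tested against 0 by limma's moderated t (two-sided), and p-values were adjusted over all genes by Benjamini-Hochberg. These p-values measure spread between these samples only. Levels per colour were taken after between-array scaling of mean intensities (Aquantile). Control and G200 of a replicate number share an array, which is the block. Alternatives covered background correction, scaling, filter, probe choice, outliers, left-out arrays and tests. The methods' normalization settings in GeneSpring are not given in the sources used here. Only the limma test was tried on simulated log ratios. Background correction, normalization between the dyes and the filter were not tried in this way, and no dye effect was simulated.

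Every receptor was accounted for, and array values were given for the called ones, the steroid receptors and the 5 with the highest intensity, a choice of what to print and not a ranking of their levels. For other lists at most 4 members were named, the largest calls with 1 sign on all arrays, with further genes named after their values were seen. The members and lists were chosen with earlier results of these data known, and the split of metabolic receptors into sensors and others was made after the values were seen.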

Additional observations from a re-analysis of the deposited data

How the results depend on the processing

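The direction of the receptors depended on the scaling between the dyes. Calls over all genes were 30.8% higher with loess, 80% with median centring and 96.3% with no normalization (8315 genes called). With median centring 7 receptors were called, and the medians were 0.13 for all receptors, 0.41 steroid, 0.0527 metabolic and 0.17 orphan, with Nr1h3 0.14, Nr1h4 0.0527, Rara 0.36, Rarg 0.0561, Rxrb 0.43, Esrra 0.54, Nr0b2 0.24, Nr2f2 0.28, Nr2f6 0.21, Nr4a1 0.0388 and Nr4a2 0.13. With no normalization the medians were 0.48, 0.76, 0.40 and 0.52, with Nr1h3 0.49, Nr1h4 0.40, Nr1i2 0.0378, Pparg 0.30, Rara 0.71, Rarb 0.25, Rarg 0.41, Rxra 0.18, Rxrb 0.78, Esrra 0.89, Hnf4a 0.15, Nr0b2 0.59, Nr2f2 0.63, Nr2f6 0.56, Nr4a1 0.39 and Nr4a2 0.48. Offset 0 gave medians of -0.37, 0.35, -0.58 and -0.40. The deposited log ratio gave 0.45 for the steroid and -0.44 for the metabolic receptors, 0.0564 for Rxrb, and 8 receptors called lower and 1 higher, beside 22.4% and 15.1% of all genes. Without the filter the medians of all, steroid, metabolic and orphan receptors were -0.0736, 0.0688, -0.17 and -0.0842, since dim genes entered. Leaving out 1 array gave 1618 to 4976 genes and 3 to 11 receptors called. The medians were then -0.31 to -0.22 for all, 0.11 to 0.25 for steroid, -0.32 to -0.24 for metabolic and -0.33 to -0.23 for orphan receptors. The ratios were -0.11 to 0.19 for Nr1h2 and -0.0202 to 0.10 for Nr2c1. With channels as separate samples and no array block, 9 receptors and 4095 genes were called. The methods' t-test after adjustment called 340 genes and 0 receptors on the channels, and 2 genes and 0 receptors on the log ratios. The cause of the other differences was not tested.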
